A study of Mus musculus with 84 samples.

Results

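The comparison described here was between mice given 1 dose of DOI (2,5-dimethoxy-4-iodoamphetamine) and sampled 7 days later and mice sampled 48 h later. It used the RNA libraries labelled 7d and 48h, which are 16 of the 84 samples of the series and 16 of its 32 RNA libraries. Each time point had 4 mice with 2 libraries per mouse, and the counts of the 2 libraries were summed, so that the mouse was the replicate (8 mice in all). All were mice of the strain 129S6/SvEvTac, labelled as 12 weeks of age, and all had received DOI. The RNA came from nuclei of the frontal cortex that had been sorted for NeuN, a protein of neuronal nuclei. Vehicle-injected mice were no part of the test, and their range over 4 mice is printed beside some genes as a reference level. No source used here gives the hour of the day at which the tissue was taken, the dose or the sex.

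DOI is a psychedelic of the substituted amphetamine class that activates serotonin 2A and 2C receptors. The serotonin 2A receptor, the product of Htr2a, is abundant on the pyramidal neurons of the frontal cortex, where it couples through Gq to phospholipase C and raises intracellular calcium. Calcium and kinase signals act on transcription factors that are already in the nucleus, among them CREB and serum response factor, which switch on immediate early genes such as Fos, Arc and the Egr family. Their products then act on synapses, dendritic spines and later waves of transcription.

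Of 5 activity-regulated genes that the results below turn on, 3 had an entry in the promoter table of RefSeq (GRCm38.p6). The 250 bases before the annotated start of each are shown, 5′ to 3′ on the gene's strand, since the cAMP response element that CREB binds was searched in them as TGACGTCA and as its half-site TGACG, on both strands, together with the AP-1 site TGACTCA. Capitals mark matches. The half-site is part of the whole element, so the 2 overlap.
Fos, chr12:85473640-85473889, plus strand: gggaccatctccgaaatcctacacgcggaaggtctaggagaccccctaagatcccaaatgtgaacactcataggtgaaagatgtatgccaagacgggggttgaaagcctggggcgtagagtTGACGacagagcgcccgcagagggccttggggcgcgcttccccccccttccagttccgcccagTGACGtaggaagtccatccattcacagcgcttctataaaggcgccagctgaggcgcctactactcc
Btg2, chr1:134079156-134079405, minus strand: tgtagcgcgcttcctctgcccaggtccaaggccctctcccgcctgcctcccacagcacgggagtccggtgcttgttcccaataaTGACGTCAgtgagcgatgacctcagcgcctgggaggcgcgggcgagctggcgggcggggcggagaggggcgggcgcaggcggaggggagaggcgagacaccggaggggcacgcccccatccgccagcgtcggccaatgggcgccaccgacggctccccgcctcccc
Dusp1, chr17:26508473-26508722, minus strand: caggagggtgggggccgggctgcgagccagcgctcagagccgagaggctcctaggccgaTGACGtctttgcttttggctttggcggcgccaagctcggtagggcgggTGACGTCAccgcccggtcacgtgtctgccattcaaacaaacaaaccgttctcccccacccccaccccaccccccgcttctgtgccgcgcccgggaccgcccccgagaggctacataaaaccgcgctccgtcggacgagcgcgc

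The whole element was found in Btg2, starting 166 bases before the start, and in Dusp1, starting 143 bases before it. Half-sites outside a whole element were found in Fos, starting 129 and 66 bases before the start, and in Dusp1, starting 191 bases before it. Of all 32851 promoters in the table, 1.55% held the whole element and 17.8% the half-site on either strand. No match to TGACTCA (4.46% of promoters) was found in these 3 windows. A match is a description of the letters, and its use was not measured here.

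Total counts per mouse were 5834248 to 7344355 at 48 h and 6972577 to 12354785 at 7 days, so 3 counts stood for 0.243 to 0.514 CPM (counts scaled to a common library total) by these totals, before TMM factors were applied. All levels below are CPM from library totals scaled with TMM factors. The 10 neuronal markers were detected in every mouse and summed to 15909 to 21380 CPM at 48 h and 10945 to 17658 CPM at 7 days. The noncoding RNA Meg3 alone was 9362 to 15185 CPM of these sums at 48 h and 4404 to 11741 CPM at 7 days. Of 10 endothelial and mural markers listed, the 4 tested summed to at most 44.3 CPM. Astrocyte markers summed to 706 to 1223 CPM at 48 h and 608 to 833 CPM at 7 days. Values are given in the order of mice 1 to 4 throughout. The 48 h mouse 1 stood apart: counts were found for 21266 genes there and for 24894 to 25223 in the other 48 h mice, and on the second principal component of log2 CPM (20.2% of the variance) its score was 98.4 while those of the other 7 mice were at most -0.37. Transcripts of the mitochondrial genome took 0.108% to 0.268% of the counts at 48 h and 0.0413%, 0.130%, 0.0210% and 0.114% in mice 1 to 4 at 7 days.

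The immediate early gene Fos was higher in all 4 mice at 7 days than in any mouse at 48 h, with means of 33.5 and 7.18 CPM, and synaptic genes such as Grik4 and Bsn were lower in all 4. No gene, these included, passed the test across all genes. In bulk nuclei, fewer nuclei of a type and less RNA per nucleus cannot be told apart, which holds for all levels given here. With edgeR (quasi-likelihood F test, Benjamini-Hochberg), 0 of 16222 genes (0.0%) passed the threshold of 0.05, and the smallest adjusted p was 0.479. At an unadjusted p below 0.05 there were 1664 genes (10.3%), of which 977 (6.02%) were higher and 687 (4.23%) lower at 7 days. All 4 mice of a group lay beyond all 4 of the other in 952 genes (5.87%), with 455 (2.8%) higher and 497 (3.06%) lower at 7 days. DESeq2 called 31 genes, 8 higher and 23 lower, and limma with the 16 libraries as units and the mouse as a correlated block called 159, 28 higher and 131 lower. Of these, 13 genes were called by both, among them Fos, Arc and Prmt9 on the higher side and Abca2, Ap1b1, Atxn2l, Grik4, Slc6a17, Tmem132a and Ube2o on the lower side. Both used the same counts, so the overlap is no independent support. The limma fit took the same correlation between libraries for every gene, and can understate the spread between mice where a gene varies more. With the mouse as the unit, limma (voom with quality weights) called 0. An absent edgeR call does not show that a gene was equal at the 2 times: the spread between mice, as a biological coefficient of variation, was 31.7% at 48 h and 47.8% at 7 days.

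The 7-day mice were not alike. On the first principal component, with 48.9% of the variance, the 48 h mice had scores of 28.3, 43.2, 45.2 and 10.1. At 7 days the scores of mice 1 to 4 were -104, 30.1, -99.4 and 46.4. Mice 2 and 4 at 7 days therefore lay among or just beyond the 48 h mice on this axis, and mice 1 and 3 far from them. Leaving out 1 mouse at a time left the edgeR count at 0 and gave 853 genes at an unadjusted p below 0.05 without the 7-day mouse 1 and 3111 without the 7-day mouse 4, the lowest and the highest of the 8 fits. There were 885 without the 7-day mouse 3, 1107 without the 48 h mouse 2, 1231 without the 48 h mouse 1 and 2561 without the 7-day mouse 2. The correlation of log2 CPM over genes within the 7-day group was 0.978 for mice 1 and 3, 0.960 for mice 2 and 4 and 0.879 for mice 1 and 4, while pairs of 48 h mice had 0.928 to 0.964. Genes are not independent replicates, and these values are a description with no test.

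**Figure D1:**
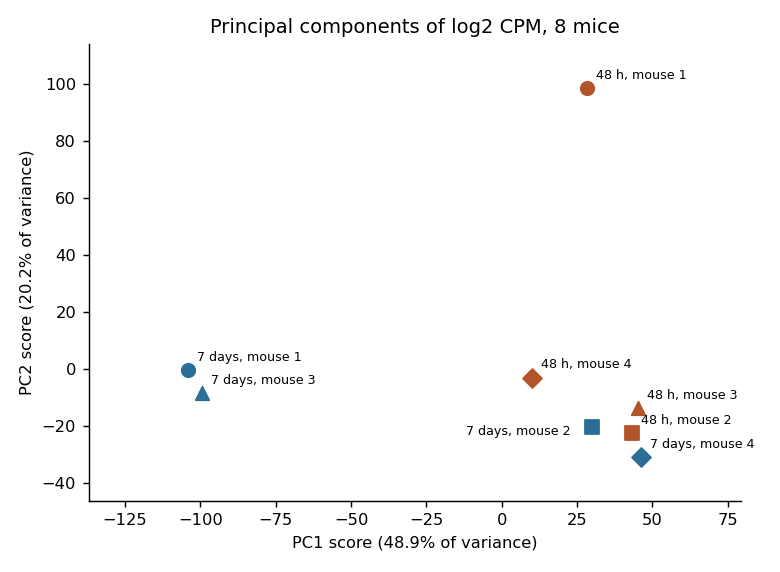
Scores of the 8 mice on the first (horizontal) and second (vertical) principal component of log2 CPM over the 16222 genes tested, with orange for 48 h, blue for 7 days and a symbol for each mouse number. Mice 1 and 3 at 7 days sit at -104 and -99.4 on the first axis, and the 48 h mouse 1 sits at 98.4 on the second.

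Counted gene by gene, 65.0%, 36.4%, 63.4% and 42.3% of the genes of mice 1 to 4 at 7 days lay outside the range of the 4 mice at 48 h. Among the genes with mice outside that range on 1 side only, the most frequent pattern was mice 1 and 3 together, with mice 2 and 4 inside: 1556 genes with these 2 mice below and 1457 with them above the range. Every other pair of 7-day mice gave between 58 and 212 genes in either direction. All 4 lay below in 497 genes and above in 455. A mean over the 7-day group is for many genes a mean of unlike mice, so the value of each mouse is printed below.

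**Figure D2:**
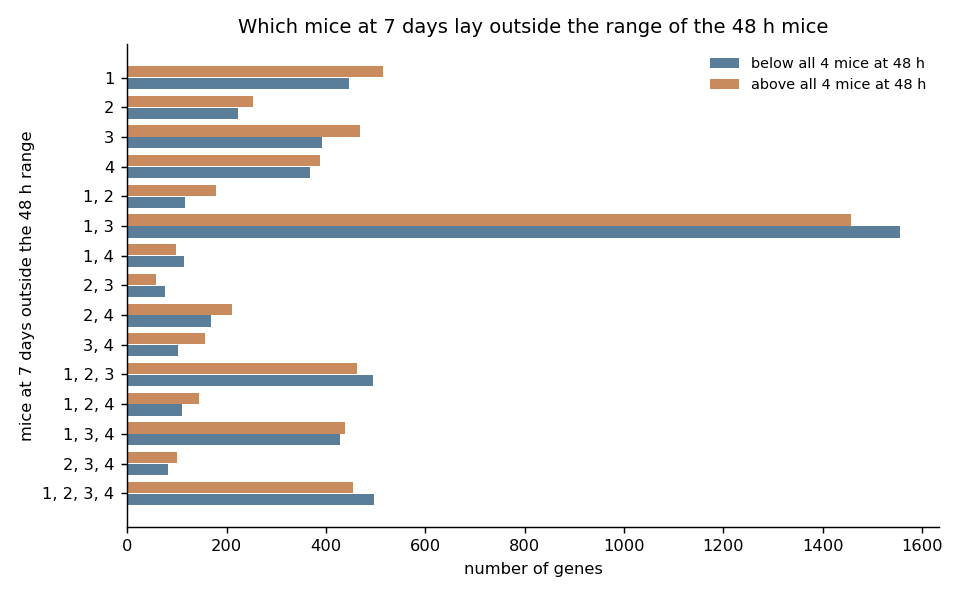
Number of genes (horizontal axis) for each set of 7-day mice (vertical axis) that lay below (blue) or above (orange) the range of the 4 mice at 48 h, for genes with mice outside on 1 side only. The bars for mice 1 and 3 reach 1556 and 1457 genes, against 497 and 455 for all 4 mice.

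Genes induced by neuronal activity included the gene with the smallest p of all. Fos encodes a subunit of the AP-1 transcription factor and is used as a marker of recently active neurons (chr12:85473890-85477273, GRCm38). It was at 5.49, 4.58, 8.27 and 10.4 CPM at 48 h and 49.1, 30.8, 29.1 and 25.02 CPM at 7 days. All 7-day mice were above all 48 h mice, and the lowest of them was 25.02 CPM against a highest 48 h value of 10.4. The means were 33.5 ± 10.7 and 7.18 ± 2.66 CPM (SD, n = 4 each). The test gave log2 fold change 2.22 ± 0.34 (SE), edgeR p = 4.22e-05, with an adjusted p of 0.479 in edgeR, 6.51e-06 in DESeq2 and 0.0206 in the fit of 16 libraries. Over 21 alternative fits the adjusted p of Fos ran from 6.51e-06 to 0.871, and its log2 fold change from 1.98 to 2.46. Vehicle mice were at 4.26, 15.7, 84.4 and 3.33 CPM, so all 7-day mice lay above 3 of the vehicle mice and below vehicle mouse 3 alone.

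Arc, whose protein regulates the removal of AMPA receptors from synapses (chr15:74669083-74672570), was at 15.3, 14.2, 20.6 and 42.3 CPM at 48 h and 169, 46.7, 107 and 37.6 CPM at 7 days. Only mice 1 and 3 at 7 days were above 100 CPM, while mice 2 and 4 were near the 48 h mouse 4. The test gave log2 fold change 1.96 ± 0.50 (SE), edgeR p = 0.00248, and its adjusted p was 0.0379 in DESeq2 and 0.0405 in the fit of 16 libraries. Btg2, an antiproliferative early response gene, was at 13.7, 17.3, 13.2 and 23.9 CPM at 48 h and 91.99, 33.2, 56.8 and 20.2 CPM at 7 days (log2 fold change 1.57 ± 0.42 (SE), edgeR p = 0.00345). Here 3 of the 7-day mice exceeded every 48 h mouse and mouse 4 lay inside their range. Klf10, a zinc finger factor, was at 50.5, 26.5, 47.99 and 36.2 CPM at 48 h and 140.3, 64.5, 91.5 and 44.9 CPM at 7 days, with log2 fold change 1.08 ± 0.34 (SE), edgeR p = 0.00903. Dusp1, a phosphatase that turns off MAP kinases, was at 58.7, 39.2, 32.6 and 41.2 CPM at 48 h and 164, 62.6, 125 and 46.6 CPM at 7 days, with log2 fold change 1.21 ± 0.37 (SE), edgeR p = 0.00759. In Klf10, as in Dusp1, mice 1 and 3 were the highest and mouse 4 was within the 48 h range. Vehicle mice spanned 28.3 to 293 CPM for Arc, 38.9 to 134 CPM for Btg2, 90.7 to 111 CPM for Klf10 and 80.1 to 248 CPM for Dusp1. For Arc, Btg2 and Dusp1 the highest vehicle mouse was mouse 3, which was also the highest for Fos.

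**Figure D3:**
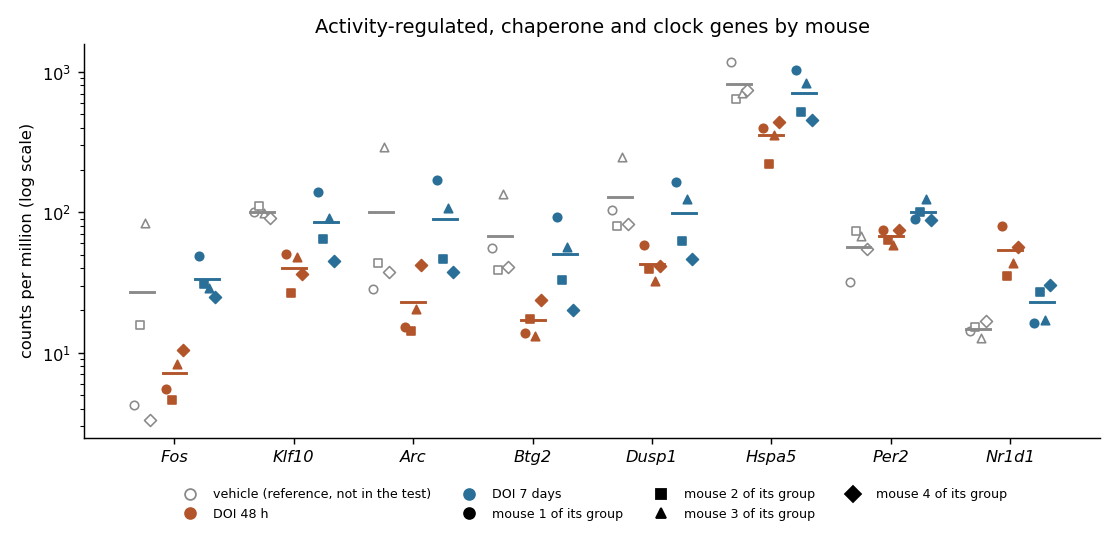
CPM (vertical axis, log scale) of 8 genes in each mouse at 48 h (orange), at 7 days (blue) and after vehicle (open grey), with a bar at the mean of each group of 4 and a symbol for each mouse number. Fos, Hspa5 and Per2 have all 7-day mice above all 48 h mice and Nr1d1 has them below, whereas Klf10, Arc, Btg2 and Dusp1 overlap at mouse 4.

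Over the 453 listed genes tested, 33 (7.28%) were higher and 32 (7.06%) lower at an unadjusted p below 0.05, beside 6.02% and 4.23% of all genes tested, and 16 (3.53%) and 24 (5.3%) did not overlap between the groups, beside 2.8% and 3.06%. These lists were chosen with earlier results of these data known, so nothing particular to them is read from the shares. Log2 fold changes were positive in 8302 of the 16222 genes tested, the background for the counts of direction in each list. Of the 15 activity-regulated transcription factors tested, 3 had an unadjusted p below 0.05, all higher at 7 days, and the list's median log2 fold change was 0.13, against 0.01 over all genes tested. Without 1 mouse the median was 0.038 (7-day mouse 1), 0.051 (48 h mouse 2), 0.070 (7-day mouse 2), 0.23 (48 h mouse 1) or 0.30 (7-day mouse 4). The third beside Fos and Klf10 was Egr2, at 1.44, 0.170, 0.602 and 2.16 CPM at 48 h and 5.51, 2.83, 2.85 and 3.11 CPM at 7 days, a level of few counts. Npas4, which is induced by calcium entry, pointed the other way: 4.04, 4.07, 3.76 and 3.65 CPM at 48 h and 2.54, 3.06, 0.713 and 3.39 CPM at 7 days, with all 7-day mice below the 48 h mice (log2 fold change -0.68 ± 0.53 (SE), edgeR p = 0.226). Egr1 overlapped between the groups, at 64.8, 44.6, 55.5 and 76.4 CPM at 48 h and 114, 89.5, 45.1 and 59.1 CPM at 7 days. Nr4a2, an orphan nuclear receptor, was at 7.65, 108, 33.5 and 54.97 CPM at 48 h and 87.4, 83.99, 99.1 and 79.6 CPM at 7 days, and the lowest of the 8 was the 48 h mouse 1, the mouse that stood apart. The summed level of the list was 257, 289, 260.3 and 318 CPM at 48 h and 509, 403, 349.6 and 332 CPM at 7 days, and the groups did not overlap. They overlapped once Fos, Klf10 or Nr4a2 was left out of the sum, which was not so for the other 12 members.

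Among 26 activity-regulated effector genes tested, 6 were higher and 1 was lower at an unadjusted p below 0.05, and the median log2 fold change was 0.44. The higher ones were Arc, Btg2, Plk3, Dusp1, Dusp6 and Plk2. Plk2, a kinase that weakens synapses after strong activity, was at 467, 475, 335 and 456 CPM at 48 h and 831, 459.9, 992 and 425 CPM at 7 days: mice 1 and 3 were above every 48 h mouse and mice 2 and 4 inside their range. Plk3 was at 10.8, 8.48, 8.27 and 21.9 CPM at 48 h and 50.2, 22.1, 77.7 and 18.8 CPM at 7 days, with the same 2 mice highest. The lower one was Nrn1, the neurite growth protein neuritin, at 16.2, 15.4, 19.9 and 20.8 CPM at 48 h and 9.50, 15.1, 10.3 and 10.3 CPM at 7 days, where the groups did not overlap although mouse 2 was close to the lowest 48 h mouse. The sums were 1926, 1726, 1925 and 2084 CPM at 48 h and 3151, 2283, 2751 and 2110 CPM at 7 days, again without overlap, though they overlapped once Scg2 or Homer1 was left out. Without the 48 h mouse 1, 5 were higher and 2 lower. There were 2 lower also without the 7-day mouse 2, and 0 without the 48 h mouse 3 or 4 or the 7-day mouse 1 or 3. The lists were chosen with earlier results of these data known, so these counts are descriptions.

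Beyond the lists, the genes with the smallest p on the higher side were the following. Xlr3b, an X-linked gene of a family of near-identical copies whose reads may be split between copies, was at 7.79, 7.12, 3.31 and 2.84 CPM at 48 h and 14.1, 13.1, 54.2 and 24.5 CPM at 7 days (log2 fold change 2.33 ± 0.53 (SE), edgeR p = 0.00103), with mouse 3 far above the others at 7 days. Agpat5, an acyltransferase of phospholipid synthesis, was at 19.5, 27.1, 33.1 and 35.4 CPM at 48 h and 78.5, 47.1, 62.2 and 56.3 CPM at 7 days. Gpsm2, which orients the mitotic spindle and binds Gi proteins, was at 11.4, 16.6, 10.1 and 14.9 CPM at 48 h and 32.8, 22.2, 44.9 and 27.3 CPM at 7 days. In these genes all 7-day mice lay above all 48 h mice. Slc31a1, the main copper importer, was at 24.1, 20.7, 27.4 and 25.1 CPM at 48 h and 72.7, 40.7, 63.7 and 35.3 CPM at 7 days, and mice 1 and 3 were the highest again. Prmt9, an arginine methyltransferase that acts on a splicing factor, was at 48.9, 31.2, 40.9 and 44.4 CPM at 48 h and 68.3, 69.8, 82.7 and 74.8 CPM at 7 days (log2 fold change 0.84 ± 0.20 (SE), edgeR p = 0.00135), with the 7-day mice close together. Nup85, a subunit of the nuclear pore, was at 66.3, 78.7, 73.4 and 79.3 CPM at 48 h and 121, 107, 154 and 121 CPM at 7 days. Spock3, a secreted proteoglycan, was at 142, 92.3, 123 and 138 CPM at 48 h and 234, 231, 198 and 189.8 CPM at 7 days. None of the 8 genes, Fos included, had overlapping groups, and their log2 fold changes ran from 0.76 for Nup85 to 2.33 for Xlr3b.

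On the lower side the smallest p was that of Atxn2l, a stress granule protein related to ataxin-2 (chr7:126491708-126503437), at 136, 151, 114 and 164 CPM at 48 h and 53.9, 73.1, 77.9 and 67.6 CPM at 7 days. The highest 7-day mouse, at 77.9 CPM, was below the lowest 48 h mouse, at 114 CPM, and the test gave log2 fold change -1.05 ± 0.20 (SE), edgeR p = 0.000221, with an adjusted p of 0.00491 in DESeq2 and 0.0206 in the fit of 16 libraries. Abca2, a lipid transporter of lysosomes, was at 75.3, 71.6, 68.3 and 92.5 CPM at 48 h and 26.4, 43.01, 28.4 and 42.5 CPM at 7 days (log2 fold change -1.13 ± 0.23 (SE), edgeR p = 0.000389). Tmem132a was at 69.3, 24.1, 43.3 and 33.6 CPM at 48 h and 11.2, 17.1, 11.8 and 16.5 CPM at 7 days, and its 48 h mice ranged more widely. Ube2o, a ubiquitin ligase, was at 24.7, 23.9, 19.7 and 35.4 CPM at 48 h and 6.27, 13.9, 9.62 and 9.75 CPM at 7 days. Nol6, a nucleolar protein, was at 44.3, 20.02, 23.8 and 35.3 CPM at 48 h and 13.3, 13.4, 9.27 and 13.00 CPM at 7 days, with mouse 3 below the other 7-day mice. Apex2, a DNA repair nuclease, was at 36.5, 32.4, 34.00 and 27.1 CPM at 48 h and 16.4, 18.9, 12.1 and 15.97 CPM at 7 days. In all of these the 7-day mice lay below every 48 h mouse. Slc6a17, a vesicular transporter of neutral amino acids in neurons, was at 108, 100.4, 87.4 and 131 CPM at 48 h and 60.7, 67.9, 54.6 and 55.4 CPM at 7 days (log2 fold change -0.84 ± 0.19 (SE), edgeR p = 0.001). Plxnb1, the receptor for semaphorin 4D, was at 12.3, 14.6, 10.2 and 5.81 CPM at 48 h and 2.46, 2.72, 1.90 and 4.24 CPM at 7 days, near the level of few counts in the 7-day mice. In the vehicle mice Atxn2l spanned 44.4 to 55.96 CPM, Abca2 20.9 to 24.5 CPM and Slc6a17 53.04 to 60.8 CPM. The 7-day mice of Atxn2l and Abca2 thus lay between the vehicle and the 48 h values, apart from mouse 1 of Atxn2l, which was within the vehicle range.

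In genes of the excitatory synapse the 7-day mice had unlike levels. Shank2, a scaffold of the postsynaptic density, was at 109.8, 135, 78.4 and 126 CPM at 48 h and 47.99, 98.7, 46.3 and 97.7 CPM at 7 days (log2 fold change -0.63 ± 0.30 (SE), edgeR p = 0.0596). Camk2a, the calcium-dependent kinase of long-term potentiation, was at 1299, 1183, 1258 and 1905 CPM at 48 h and 128, 1188, 166 and 1015 CPM at 7 days: mouse 3 was in the vehicle range of 152 to 223 CPM, mouse 1 below it, and mice 2 and 4 near the lowest 48 h mice. Shank1 showed the reverse, 102, 152, 135 and 106 CPM at 48 h and 299.6, 82.97, 321 and 101 CPM at 7 days. Camk2a and Shank1 were picked after their values were seen. Of 19 postsynaptic scaffold genes tested, 0 were higher and 1 was lower at an unadjusted p below 0.05, and 10 and 11 of them lay below the 48 h range in mice 1 and 3, against 3 each in mice 2 and 4. Over all genes tested the shares below that range were 32.2%, 18.1%, 31.6% and 21.2% in mice 1 to 4. Without the 48 h mouse 3 there were 2 lower genes in the list. Without the 7-day mouse 2 there were 3 lower and 2 higher genes, and without mouse 4 there were 5 lower and 1 higher.

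NMDA receptors are the glutamate-gated calcium channels that trigger long-term synaptic change. All 6 subunit genes tested had negative log2 fold changes, from -0.72 to -0.30 with a median of -0.51, and 0 reached an unadjusted p below 0.05. Grin2b (chr6:135713233-136173511) was at 952, 1016, 999 and 1070 CPM at 48 h and 330.1, 959, 291 and 949 CPM at 7 days. Mice 1 and 3 were in or near the vehicle range of 292 to 394 CPM, mouse 2 was inside the 48 h range and mouse 4 just below it, and the test gave log2 fold change -0.68 ± 0.38 (SE), edgeR p = 0.0989. Grin2a was at 491, 504, 671 and 534 CPM at 48 h and 286, 515, 299 and 523 CPM at 7 days, with the same pair of mice low. Grin1, the obligatory subunit, was at 347, 307, 243 and 297 CPM at 48 h and 235, 179, 359 and 199.6 CPM at 7 days, where mouse 3 was the highest and not the lowest at 7 days, so the subunits did not share 1 order of mice. The summed level was 1944, 1914, 2037 and 2015 CPM at 48 h and 953, 1759, 1031 and 1746 CPM at 7 days, without overlap, also with any 1 subunit left out. Without the 7-day mouse 4 there were 2 subunits lower at an unadjusted p below 0.05, and without the 48 h mouse 2 or the 7-day mouse 2 or 3 there was 1.

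**Figure D4:**
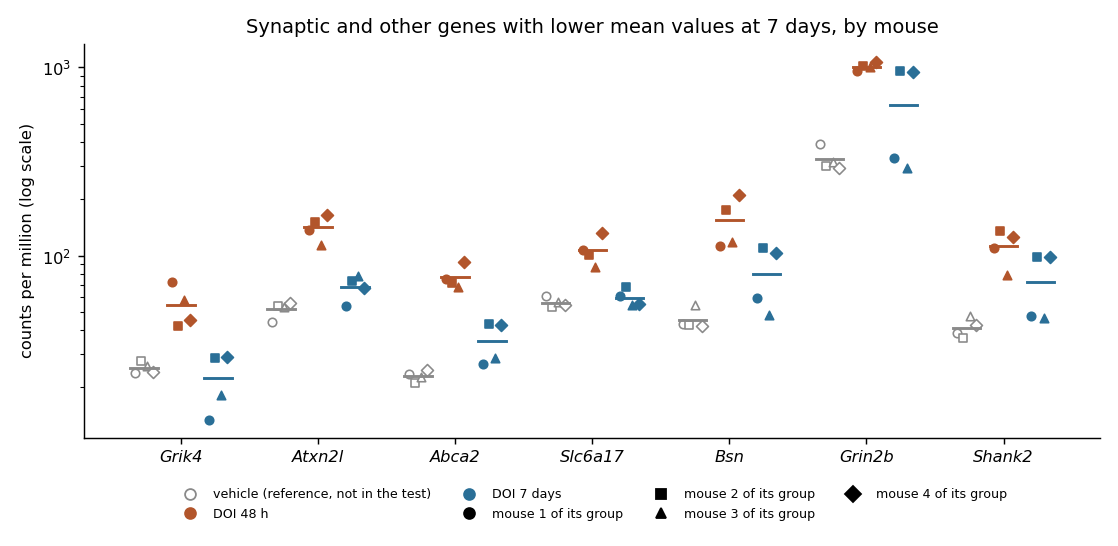
CPM (vertical axis, log scale) of 7 genes in each mouse at 48 h (orange), at 7 days (blue) and after vehicle (open grey), with a bar at the mean of each group of 4. Grik4, Atxn2l, Abca2, Slc6a17 and Bsn have all 7-day mice below all 48 h mice, while for Grin2b and Shank2 mice 1 and 3 are low and mice 2 and 4 lie inside or close to the 48 h range.

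Other ionotropic glutamate receptor genes were mixed. Grik4, a kainate receptor subunit (chr9:42518135-42944493), was at 72.03, 42.4, 58.4 and 45.5 CPM at 48 h and 13.4, 28.4, 18.2 and 28.8 CPM at 7 days (log2 fold change -1.30 ± 0.30 (SE), edgeR p = 0.00103), with all 7-day mice lower. Its DESeq2 adjusted p was 0.0378 and that of the fit of 16 libraries 0.0290. Neto2, an auxiliary subunit of kainate receptors, was at 123, 61.6, 124 and 122 CPM at 48 h and 227, 158, 197 and 153 CPM at 7 days (log2 fold change 0.77 ± 0.25 (SE), edgeR p = 0.0112), with all 7-day mice higher and the 48 h mouse 2 far below its group. Gria2, the AMPA receptor subunit that blocks calcium entry, was at 2647, 2831, 3655 and 2645 CPM at 48 h and 4422, 3120, 5333 and 3606 CPM at 7 days, with log2 fold change 0.48 ± 0.23 (SE), edgeR p = 0.061. Among 15 AMPA receptor genes 0 had an unadjusted p below 0.05. Without the 48 h mouse 3 or the 7-day mouse 2 there was 1 in each direction, without the 48 h mouse 4 there was 1 higher, and without the 7-day mouse 4 there were 2 lower. Grm7, a presynaptic metabotropic receptor, was at 151, 105, 130.1 and 132 CPM at 48 h and 307, 116, 363 and 169 CPM at 7 days: mice 1 and 3 were over 300 CPM, as were all vehicle mice at 316 to 349.8 CPM, and mouse 2 was inside the 48 h range. Of the GABA-A receptor genes, Gabra5 was at 95.7, 41.7, 73.7 and 64.4 CPM at 48 h and 162, 99.2, 114 and 90.5 CPM at 7 days (log2 fold change 0.76 ± 0.28 (SE), edgeR p = 0.019), with mouse 4 alone within the 48 h range.

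Of 30 presynaptic genes tested 4 were lower and 0 higher at an unadjusted p below 0.05, beside 4.23% and 6.02% of all genes tested. Bsn, the active zone scaffold bassoon, was at 112, 175, 118 and 209.8 CPM at 48 h and 59.1, 109.8, 48.6 and 103 CPM at 7 days (log2 fold change -0.94 ± 0.31 (SE), edgeR p = 0.0111). Vamp1, a vesicle SNARE, was at 31.9, 20.2, 19.4 and 19.4 CPM at 48 h and 14.7, 14.7, 13.5 and 10.6 CPM at 7 days. In both genes all 7-day mice were below all 48 h mice. Unc13a, a priming factor, was at 146, 237, 158 and 188 CPM at 48 h and 51.04, 141, 60.9 and 147 CPM at 7 days, with mouse 4 just inside the 48 h range. Each of these genes overlaps another on the opposite strand, and the counts carry no strand. The median of the list was -0.10. Without the 7-day mouse 2 or 4 there were 6 lower and 1 higher, and without mouse 2 the median was -0.17.

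The serotonin receptors showed little that exceeded the spread. Htr2a, the main receptor of DOI, was at 102, 46.8, 76.9 and 81.2 CPM at 48 h and 128, 103, 92.8 and 98.7 CPM at 7 days, with means of 105.6 ± 15.3 at 7 days and 76.7 ± 22.7 CPM at 48 h (SD, n = 4 each). The edgeR fit gave log2 fold change 0.46 ± 0.24 (SE), edgeR p = 0.0803. The 7-day mice 3 and 4 lay within the 48 h range, set at the upper end by mouse 1, and vehicle mice spanned 122 to 143 CPM. None of the 12 serotonin receptor genes tested had an unadjusted p below 0.05, and their median log2 fold change was 0.05. There was 1 higher without the 48 h mouse 1 and 1 lower without the 7-day mouse 4, and the median without 1 mouse ran from -0.046 (48 h mouse 3) to 0.20 (48 h mouse 4). Among 17 genes of Gq, phospholipase C and arrestin signalling 1 was higher and 1 lower. There were 2 higher without the 7-day mouse 2, 3 or 4, and 0 lower without the 48 h mouse 4 or the 7-day mouse 1 or 3. The higher one was Itpr2, a calcium release channel, at 1.30, 1.53, 2.41 and 2.03 CPM at 48 h and 4.24, 6.56, 5.94 and 3.67 CPM at 7 days, a level of few counts. The lower one was Grk2, a kinase that desensitises receptors, at 41.1, 36.8, 29.5 and 52.8 CPM at 48 h and 14.3, 30.7, 12.2 and 28.98 CPM at 7 days (log2 fold change -0.90 ± 0.34 (SE), edgeR p = 0.0219), with mice 1 and 3 lowest. Rgs2, which shortens Gq signals, was at 68.9, 83.1, 51.3 and 83.3 CPM at 48 h and 92.2, 121, 62.6 and 114 CPM at 7 days. The groups overlapped in Grk2 and Rgs2.

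Clock genes cycle over the day and drive each other in a feedback loop. Nr1d1 (Rev-erb alpha), a repressor of the clock loop, was at 79.2, 35.3, 43.8 and 57.00 CPM at 48 h and 16.4, 27.3, 17.1 and 30.4 CPM at 7 days (log2 fold change -1.24 ± 0.31 (SE), edgeR p = 0.00202), with all 7-day mice lower. Per2 was at 75.2, 63.9, 58.8 and 74.3 CPM at 48 h and 89.3, 101, 123 and 88.8 CPM at 7 days (log2 fold change 0.56 ± 0.19 (SE), edgeR p = 0.0121), with all 7-day mice higher. Cry1 was at 14.1, 19.3, 9.48 and 17.3 CPM at 48 h and 31.5, 17.5, 33.97 and 24.6 CPM at 7 days, with mouse 2 inside the 48 h range. Of 19 clock genes tested 2 were higher and 1 lower at an unadjusted p below 0.05, and Dbp, a strongly cycling output gene, overlapped between the groups at 20.9, 23.1, 9.18 and 22.8 CPM at 48 h and 30.6, 25.02, 31.8 and 20.1 CPM at 7 days. There was 1 higher clock gene without the 48 h mouse 3 or the 7-day mouse 3, and there were 3 without the 48 h mouse 1 or the 7-day mouse 4. The lower ones were 2 without the 48 h mouse 2 or the 7-day mouse 4, and 3 without the 7-day mouse 2. Among 13 glucocorticoid-regulated genes 2 were higher, Dusp1 and Zbtb16, the latter at 5.92, 5.77, 9.03 and 9.99 CPM at 48 h and 25.1, 7.81, 26.96 and 7.35 CPM at 7 days, where mice 1 and 3 were at the vehicle level of 18.9 to 28.3 CPM and mice 2 and 4 within the 48 h range. The higher ones of this list were 1 without the 48 h mouse 1 or 2 or the 7-day mouse 1 or 3, 4 without the 7-day mouse 2, with 1 lower, and 5 without the 7-day mouse 4.

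Hspa5, the chaperone of the endoplasmic reticulum known as BiP, was at 398, 219.8, 355 and 442 CPM at 48 h and 1029, 515, 829 and 455 CPM at 7 days (log2 fold change 1.00 ± 0.31 (SE), edgeR p = 0.00737), and the groups did not overlap, although mouse 4 exceeded the highest 48 h mouse only slightly. Its DESeq2 adjusted p was 0.140 and that of the fit of 16 libraries was 0.0313. Hspa8, the constitutive cytosolic chaperone, was at 214, 120.1, 296 and 276 CPM at 48 h and 479, 321, 291 and 244 CPM at 7 days, with overlap. In the list of 21 chaperones tested 1 was higher and 0 were lower, and the median was 0.06. Without the 7-day mouse 4 there were 3 higher and 1 lower, and without the 48 h mouse 1 there was 1 lower. The median without 1 mouse ran from -0.027 (7-day mouse 1) to 0.15 (7-day mouse 3).

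Regulators of histone acetylation and of H3K27 mostly had negative log2 fold changes. Of 31 tested, 21 had negative log2 fold changes, the median was -0.34, and 5 were lower and 0 higher at an unadjusted p below 0.05. Over all genes tested, 4.23% were lower and 6.02% higher at that p, and 8302 of 16222 had positive log2 fold changes. Hdac7, a class IIa deacetylase, was at 15.9, 29.5, 22.3 and 23.9 CPM at 48 h and 7.80, 14.6, 14.3 and 14.1 CPM at 7 days (log2 fold change -0.85 ± 0.30 (SE), edgeR p = 0.0165), and mouse 1 was below the other 7-day mice. Its groups did not overlap. Hdac4 was at 186, 189, 171 and 184 CPM at 48 h and 119, 174, 119.97 and 118 CPM at 7 days, where only mouse 2 reached the 48 h range. Kmt2d, an H3K4 methyltransferase of enhancers, was at 146, 130.3, 101 and 140.3 CPM at 48 h and 27.4, 80.3, 26.4 and 126 CPM at 7 days, with mice 1 and 3 within the vehicle range of 21.3 to 32.1 CPM. Leaving out 1 mouse at a time gave 0 to 11 lower genes in this list, 0 without the 48 h mouse 2 and 11 without the 7-day mouse 4. There were 2 without the 48 h mouse 1 or 3, and 1 without the 48 h mouse 4 or the 7-day mouse 1 or 3. There were 2 higher without the 7-day mouse 4 and 1 without the 7-day mouse 2. The median was -0.18 without the 7-day mouse 1.

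Axon guidance and adhesion genes went both ways. Of 44 guidance genes 3 were higher and 3 lower at an unadjusted p below 0.05. Ntn4, a secreted netrin, had the highest fold change of the list, at 0.433, 1.70, 1.81 and 3.51 CPM at 48 h and 20.9, 1.70, 15.2 and 5.23 CPM at 7 days: mice 1 and 3 were near the vehicle range of 13.8 to 19.2 CPM, mouse 2 was inside the 48 h range and mouse 4 just above it. Epha7, an ephrin receptor, was at 217, 312, 344 and 288 CPM at 48 h and 442, 356, 406 and 397 CPM at 7 days, without overlap. Sema6d, a semaphorin, was at 38.3, 38.8, 39.1 and 35.8 CPM at 48 h and 30.4, 28.8, 22.7 and 27.99 CPM at 7 days, also without overlap but on the lower side. Without the 48 h mouse 4 there was 1 guidance gene in each direction, without the 7-day mouse 1 there was 1 higher, and without the 7-day mouse 4 there were 4 higher and 5 lower. Of 16 adhesion genes 2 were higher and 3 lower, and without the 7-day mouse 1 there were 0 higher. There was 1 higher without the 48 h mouse 2 or 4 or the 7-day mouse 3, and there were 4 without the 7-day mouse 2. Cadm3 was at 92.5, 78.03, 73.9 and 81.04 CPM at 48 h and 48.3, 57.5, 44.2 and 53.99 CPM at 7 days (log2 fold change -0.67 ± 0.18 (SE), edgeR p = 0.00314), and the presynaptic neurexin Nrxn2 at 31.9, 25.6, 32.6 and 37.7 CPM at 48 h and 14.2, 18.8, 16.04 and 23.5 CPM at 7 days (log2 fold change -0.82 ± 0.25 (SE), edgeR p = 0.00655). Nlgn2, the neuroligin of inhibitory synapses, was at 11.1, 13.2, 13.5 and 16.7 CPM at 48 h and 10.8, 7.36, 9.38 and 5.65 CPM at 7 days. All 7-day mice were below all 48 h mice in these 3 genes. Lrrtm4, a neurexin partner, was at 21.4, 20.4, 17.3 and 18.1 CPM at 48 h and 35.7, 26.03, 36.6 and 22.5 CPM at 7 days, with all 7-day mice above.

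Markers of striatal projection neurons, a cell type outside the frontal cortex, differed between the 7-day mice. Of 20 markers tested 19 had positive log2 fold changes, 7 were higher and 0 lower at an unadjusted p below 0.05, and the median was 0.86. Over all genes tested, 8302 of 16222 had positive log2 fold changes, and 6.02% were higher and 4.23% lower at that p. The summed level of the markers was 695, 1137, 679.5 and 995 CPM at 48 h and 1151, 2814, 821 and 2138 CPM at 7 days, and 698 to 850.4 CPM in vehicle mice. Mice 2 and 4 at 7 days were the highest, mouse 1 was slightly above the 48 h range, and mouse 3 inside it. Rgs9 was at 9.82, 41.2, 14.7 and 25.5 CPM at 48 h and 18.7, 128, 9.15 and 128 CPM at 7 days (log2 fold change 1.63 ± 0.76 (SE), edgeR p = 0.0533). The opioid precursor Penk was at 154, 277, 112 and 249 CPM at 48 h and 333, 951, 189 and 575 CPM at 7 days (log2 fold change 1.37 ± 0.46 (SE), edgeR p = 0.0119). Drd1, the dopamine D1 receptor, was at 27.3, 37.7, 43.5 and 38.8 CPM at 48 h and 73.5, 127, 42.9 and 98.4 CPM at 7 days (log2 fold change 1.22 ± 0.31 (SE), edgeR p = 0.00233), with mouse 3 alone inside the 48 h range. Of 22 listed markers 0 were without counts in all 8 mice, and Drd2, Adora2a, Six3 and Syndig1l were at 0 counts in at least 1. Without the 7-day mouse 2 there were 2 higher markers, without the 7-day mouse 4 or the 48 h mouse 3 there were 3, and without the 7-day mouse 1 or 3 there were 12. Without the 48 h mouse 1 there were 5. Their part in the other results was not tested: the mice with the highest sums were those that lay near the 48 h mice in Grin2b and Camk2a.

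**Figure D5:**
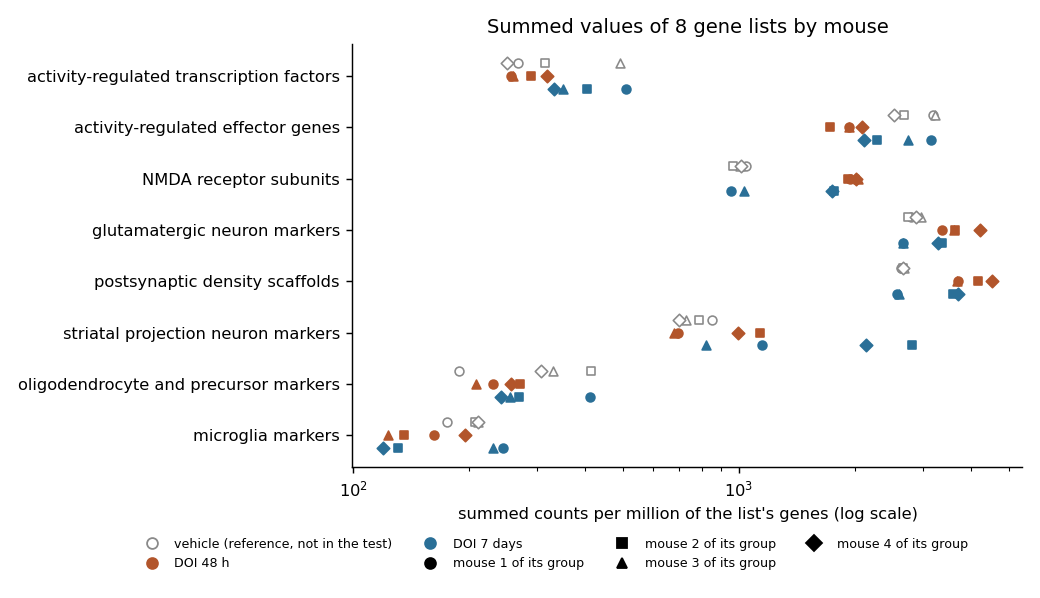
Summed CPM (horizontal axis, log scale) of 8 gene lists (vertical axis) in each mouse at 48 h (orange), at 7 days (blue) and after vehicle (open grey). The 2 activity-regulated lists have all 7-day mice to the right of the 48 h mice, the NMDA receptor and glutamatergic lists have them to the left (the latter not without Camk2a), and the striatal list spreads from 821 to 2814 CPM at 7 days.

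The glutamatergic neuron markers summed to 3368, 3631, 3610 and 4224 CPM at 48 h and 2660, 3356, 2662 and 3291 CPM at 7 days, without overlap. Without Camk2a the sums were 2069, 2448, 2352 and 2319 CPM at 48 h and 2533, 2168, 2496 and 2275 CPM at 7 days, so the groups overlapped. They overlapped also without Arpp21 or Mef2c. Nrgn, the calmodulin-binding protein neurogranin, was the only one of the 12 with an unadjusted p below 0.05, at 28.00, 29.3, 22.1 and 36.1 CPM at 48 h and 16.3, 19.2, 12.4 and 14.6 CPM at 7 days (log2 fold change -0.89 ± 0.25 (SE), edgeR p = 0.00481), with all 7-day mice below. The lower ones were 2 without the 48 h mouse 1 or the 7-day mouse 1 or 2, and 3 without the 7-day mouse 4, and 1 was higher without the 7-day mouse 2. Slc17a7, the vesicular glutamate transporter of cortical neurons, was at 62.6, 93.5, 94.9 and 83.6 CPM at 48 h and 166, 52.97, 144 and 60.6 CPM at 7 days, with mice 1 and 3 above and mice 2 and 4 below the 48 h range.

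Of 18 deep-layer markers tested 8 had positive and 10 negative log2 fold changes, 0 were higher and 2 lower at an unadjusted p below 0.05, and the median was -0.13. Their summed level was 780.3, 716, 965 and 689 CPM at 48 h and 821, 929, 498 and 910.1 CPM at 7 days, with overlap and with 3 of the 7-day mice above 3 of the 48 h mice. The 2 lower ones were Tshz2, at 35.7, 18.5, 25.6 and 17.6 CPM at 48 h and 9.75, 13.4, 6.77 and 15.1 CPM at 7 days, and Bcl6, at 22.1, 23.1, 28.1 and 18.6 CPM at 48 h and 5.60, 17.3, 3.68 and 14.7 CPM at 7 days, with no overlap in either. There was 1 lower without the 48 h mouse 3, and 1 higher without the 7-day mouse 3. The median without 1 mouse ran from -0.28 (7-day mouse 1) to -0.019 (7-day mouse 3). Of 13 upper-layer markers tested 6 had positive and 7 negative log2 fold changes, 0 were higher and 2 lower, and the median was -0.0039. Their summed level was 941, 863, 740.2 and 1215 CPM at 48 h and 966, 959, 992 and 897 CPM at 7 days, with overlap. There was 1 lower without the 48 h mouse 1, 2 or 4 or the 7-day mouse 1 or 2, and the median without 1 mouse ran from -0.16 (7-day mouse 3) to 0.059 (48 h mouse 2). One of the 2, Rasgrf2, was at 183, 136, 111 and 183 CPM at 48 h and 61.7, 93.7, 64.97 and 113 CPM at 7 days, where mouse 4 alone reached the 48 h range. The interneuron markers summed to 3662 to 5413 CPM at 48 h and 3156 to 5702 CPM at 7 days, with overlap. Of 24 tested 11 had positive and 13 negative log2 fold changes, and 1 was higher and 2 lower at an unadjusted p below 0.05. There were 0 higher without the 48 h mouse 3 or 4 or the 7-day mouse 1 or 3. Kcnc2, a fast potassium channel of interneurons, was at 342, 264, 321 and 274 CPM at 48 h and 152, 238, 157 and 240.2 CPM at 7 days, with all 7-day mice lower.

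Glial markers were listed as a check of the sort for neuronal nuclei. The oligodendrocyte list summed to 230.2, 271, 209 and 256 CPM at 48 h and 412, 268, 255 and 241 CPM at 7 days, and mouse 1 at 7 days was the highest. Olig1 was at 5.63, 7.80, 2.71 and 7.02 CPM at 48 h and 15.4, 8.72, 13.2 and 13.1 CPM at 7 days, without overlap. Mbp, a myelin protein, was at 79.2, 84.6, 55.7 and 75.1 CPM at 48 h and 187, 72.7, 108 and 68.7 CPM at 7 days, and mice 1 and 3 were the highest. The microglia list summed to 162, 136, 123 and 195 CPM at 48 h and 245, 131, 230.2 and 119 CPM at 7 days. Csf1r was at 17.6, 14.2, 13.1 and 24.4 CPM at 48 h and 42.6, 20.03, 36.8 and 20.9 CPM at 7 days, with mice 1 and 3 above all 48 h mice. Tmem119 was at 2.89, 3.05, 3.46 and 5.27 CPM at 48 h and 10.2, 6.00, 13.8 and 4.81 CPM at 7 days, with mouse 4 alone in the 48 h range. The astrocyte list summed to 1059, 706, 1223 and 894 CPM at 48 h and 806, 833, 608 and 715 CPM at 7 days, and Sox9 was at 4.91, 10.5, 7.07 and 7.16 CPM at 48 h and 3.65, 4.30, 1.43 and 3.82 CPM at 7 days, with all 7-day mice lower. Of the 9 astrocyte markers tested 0 were higher and 2 lower at an unadjusted p below 0.05, of the 10 oligodendrocyte markers 1 was higher and 0 lower, and of the 9 microglia markers 2 were higher and 0 lower. There was 1 lower astrocyte marker without the 48 h mouse 1 or the 7-day mouse 3 or 4. The higher oligodendrocyte markers were 2 without the 7-day mouse 2 and 4 without the 7-day mouse 4. The higher microglia markers were 0 without the 7-day mouse 3, 1 without the 48 h mouse 1, 2 or 3 or the 7-day mouse 1, and 3 without the 7-day mouse 4. Gfap, Sox10 and C1qa were at 0 counts in at least 1 mouse. The part of these cells in the other results was not tested.

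Transcripts of the mitochondrial genome and long noncoding RNAs of the nucleus mostly had negative log2 fold changes. All 7 mitochondrial protein genes tested had negative log2 fold changes, with a median of -0.89. At an unadjusted p below 0.05, 2 were lower, beside 4.23% of all genes tested. There were 0 without the 48 h mouse 3 or 4 or the 7-day mouse 1 or 3, 4 without the 7-day mouse 2 and 5 without the 48 h mouse 1. The median was -0.56 without the 7-day mouse 3. mt-Nd1 was at 166, 197, 371 and 308 CPM at 48 h and 92.8, 223, 46.7 and 157 CPM at 7 days, with mouse 3 lowest, then mouse 1. Malat1, the RNA with the most counts in each mouse, was at 27259, 73275, 62092 and 28564 CPM at 48 h and 17521, 33702, 24859 and 41739 CPM at 7 days, with overlap. The neuronal RNA Meg3 was at 9961, 14790, 15185 and 9362 CPM at 48 h and 4404, 11196, 5992 and 11741 CPM at 7 days, with mice 1 and 3 below the 48 h range. Over all 882 long noncoding genes tested the median log2 fold change was -0.20, and over the 12511 protein-coding genes it was 0.07. Among 11 nuclear noncoding RNAs 0 had an unadjusted p below 0.05 and 8 were on the lower side, with a median of -0.43. Without the 7-day mouse 4 there were 5 lower and the median was -0.77, and without the 7-day mouse 2 there was 1 lower. The median was -0.26 without the 7-day mouse 1 and -0.22 without the 7-day mouse 3.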

How the data were processed

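The deposited tables hold whole-number read counts, which the authors made with featureCounts v2.0.0 from the exons of Ensembl genes (GRCm38), per the file headers. No option was set there for strand, pairs, multiple alignments or gene overlap. Reads of antisense or near-identical genes can therefore be misassigned or lost. The submitters' processing notes also name Trim Galore 0.6.5 and the aligner Bowtie2 2.4.1, without a role, and which aligner the RNA reads went through is not given in the sources used here. The headers of mouse 2 at both times carry the number 6, and the numbers of the labels were used. Per the labels' protocols, RNA of sorted nuclei went through SMART-seq2 and Nextera XT.

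The 2 libraries of a mouse were summed. They differed beyond sampling noise (chi-square per degree of freedom of 1.40 to 2.85), with log2 CPM correlated at 0.965 to 0.991. Genes kept by filterByExpr over the 8 mice (16222 of 55401) were scaled with TMM and fitted with edgeR 4.0.16 (glmQLFit, glmQLFTest, R 4.3.3, two-sided, Benjamini-Hochberg, threshold 0.05), a procedure tested on simulated data. Nothing in the labels says how the 4 mice of a group were housed or injected, and p-values measure the spread between these mice. CPM of vehicle mice were put on the same scale. Overlap of groups was judged on log2 CPM with a prior count of 2. Intervals of counting error were not computed, and reads carried no molecular identifiers.

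Named genes were, among genes averaging 2 or more in log2 CPM, the 8 with the smallest p in each direction, the 2 with the smallest p in each of 30 lists (453 genes tested), Htr2a and Rgs9, in all 74. The values of some of them are not reported here. Of the named genes, adjusted p ran from 0.479 to 0.783. Further members are printed where a list is described and were chosen after their values were seen. The members, lists and rules were chosen with earlier results of these data known. Gene symbols came from the table given (99.5% of IDs matched). DESeq2 1.42.0, limma 3.58.1 (voom, quality weights, duplicateCorrelation), other scalings and filters, single libraries, the mouse number as a block, a covariate and left-out mice were tried as alternatives.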

Additional observations from a re-analysis of the deposited data

Results flagged for a closer look

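Among 110 measures, each examined in both groups of 4 mice, 8 values stood further from their group than Dixon's 95% limit for the gap to the nearest mouse over the whole range. Chance alone marks about 1 in 20 groups, which is more than was found over the 220 groups. At 48 h, mouse 1 had the fewest genes with counts (21266, nearest 24894) and the highest score on the second principal component (98.4, nearest -2.93). Mouse 2 at 48 h had the lowest summed level of the GABA-A receptor subunits (2006 CPM, nearest 2803) and the lowest Neto2 (61.6 CPM, nearest 122.5). At 7 days, mouse 1 had the highest sum of oligodendrocyte and precursor markers (411.9 CPM, nearest 268.5) and the lowest Hdac7 (7.80 CPM, nearest 14.1). Mouse 2 at 7 days had the highest Hdac4 (174 CPM, nearest 120.0) and mouse 3 the lowest Nol6 (9.27 CPM, nearest 13.0).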

How the results depend on the processing

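The edgeR count of genes at 7 days against 48 h was 0 and stayed 0 under voom with quality weights per mouse or per group, the fit over all 4 RNA groups, other scaling factors, a filter of at least 1 CPM in 4 or more mice (17367 genes, more than the 16222 of the filter used), either library alone, the number of genes detected as a covariate, thresholds of 0.01 and 0.1, and without each of the 8 mice in turn. It was 31 with DESeq2, which gave no adjusted p for 635 genes, 1 without a filter (Fos, higher) and 159 with the 16 libraries as units. Unadjusted counts ranged from 853 to 3207. The fit over 4 groups gave 2959. With the mouse number as a replicate block the count was 0 and the unadjusted count 1179. Same-numbered mice are different animals, and the correlations of their deviations were 0.124, 0.165, -0.211 and -0.321, so the numbers do not pair them. The number of genes whose groups did not overlap was 952, and 794 to 1262 under other scalings, filters and single libraries. Without 1 mouse at a time it was 1202 to 2228, with fewer mice to overlap. Over the 74 named genes and 13 other fits, 38 values became called, 924 kept their side of the threshold and 0 changed sign. Without 1 mouse at a time 591 values kept their side and 1 changed sign: Pdgfrb, at -0.30 with all mice and at -0.51 (without the 7-day mouse 3) to 0.094 (without the 48 h mouse 1). Genes under about 3 counts per mouse are beyond what this depth can show. The sums of gene lists without each member in turn were an alternative chosen after seeing the data.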
